A study of Mus musculus with 38 samples.

Results

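The genes described here are 10 genes of the NRF2 antioxidant response, taken by symbol from a list: Nfe2l2, Keap1, Gclm, Gclc, Txnrd1, Srxn1, Prdx1, Gsr, G6pdx and Slc7a11. All 10 were found among the 55487 Ensembl genes of the deposited count tables, and all 10 passed the filter on low counts in every fit. RNA was sequenced in 38 mouse libraries of 18 groups. The groups were BV2 (a microglial line), GL261 (a glioma line stably carrying the plasmid pEGFP-N1) and macrophages grown from bone marrow (BMDM, taken from mice labelled WT, with strain and age not given in the sources used here). Each was kept for 16 h in normoxia (21% O2) or hypoxia (labelled <0.1% O2), and all cells were fixed in 3% glyoxal. In the co-culture experiment each cell type was grown alone (monoculture) or in co-culture, where 2 GL261 cells were seeded per BV2 cell or 1 per BMDM. The GL261 co-culture labels name no partner, and BV2 was taken as the partner because both share a count table. The panobinostat experiment held BV2 or BMDM with the solvent dimethyl sulfoxide (DMSO) at either oxygen level, and with 10 nM of panobinostat, which inhibits histone deacetylases, in hypoxia. BV2 cells were grown in medium with 2% serum and BMDM with 10%. Groups had 2 libraries each, and the normoxic and hypoxic BMDM co-cultures had 3. The labels speak of biological replicates for the BV2 and GL261 libraries of the co-culture experiment. For the other 22 libraries nothing says that they came from separate cultures or animals, so p-values measure only the spread between these libraries, which may be technical.

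NRF2, encoded by Nfe2l2, is a transcription factor that is held in the cytoplasm and sent for degradation by KEAP1 until oxidants or electrophiles modify KEAP1. Freed NRF2 pairs with small MAF proteins on antioxidant response elements and raises genes for glutathione synthesis, for the thioredoxin system and for the NADPH that both systems spend. In macrophages and microglia these genes buffer the oxidants of the respiratory burst, and in glioma cells cystine import for glutathione is known to affect survival under oxidative stress.

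The stretches of promoter that hold the core of an antioxidant response element are shown because NRF2 acts through this element. RefSeq promoters (GRCm38.p6, 250 bases before and 50 after the start) were given for 8 of the 10 genes and were searched on both strands for TGACNNNGC. Each line below is written 5′ to 3′ in the direction of the gene, the capitals mark the match, and a match on the other strand reads GCNNNGTCA.
Nfe2l2, chr2:75704885-75704913, minus strand: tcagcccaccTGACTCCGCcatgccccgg
Gclm, chr3:122245413-122245441, plus strand: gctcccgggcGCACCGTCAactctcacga
Txnrd1, chr10:82859104-82859132, plus strand: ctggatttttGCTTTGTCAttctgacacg
Prdx1, chr4:116685456-116685484, plus strand: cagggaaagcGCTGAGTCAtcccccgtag
G6pdx, chrX:74428919-74428947, minus strand: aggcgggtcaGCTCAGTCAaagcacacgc
The match began 240 bases before the start in Nfe2l2, 134 in Gclm, 92 in Txnrd1, 133 in Prdx1 and 57 in G6pdx. In Txnrd1 it was found in 1 of 3 promoters, and the Txnrd1 and G6pdx stretches lie inside the longer GENCODE gene of the same build. Srxn1 held its match 28 bases after the start. The Keap1 and Slc7a11 windows held none. The same letters stand in 12.4% of 32851 promoters of this length.

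Srxn1 held 2 copies of the AP-1-type motif TGANTCA, whose reverse complement is the same motif. These are shown because this motif overlaps the antioxidant response element in Prdx1.
Srxn1, chr2:152105412-152105438, plus strand: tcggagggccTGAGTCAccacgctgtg
Srxn1, chr2:152105469-152105495, plus strand: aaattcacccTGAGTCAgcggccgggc
They began 102 and 45 bases before the start, and TGANTCA stands in 7.81% of all promoters. The copy at 45 bases is followed by GC and so reads TGAGTCAGC. This differs from the searched TGACNNNGC only in having TGAG in place of TGAC, so the search did not count it. Prdx1 held TGANTCA 237 and 131 bases before its start, the second copy lying within its antioxidant response element. The hypoxia response element core ACGTG, searched on both strands and present in 19.6% of promoters, stood in Keap1, Gclm and G6pdx. A match describes letters in a window and is not a measured binding site.

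Library totals were 13548800 to 27238900 counts for the 16 BV2 and GL261 libraries of the co-culture experiment, 9909370 to 17000500 for its 10 BMDM libraries and 9634700 to 15869200 for the 12 libraries of the panobinostat experiment, to 6 significant digits. Levels are given as CPM, counts scaled to a common library size with the trimmed-mean factors of each fit, and 3 counts correspond to 0.11 to 0.311 plain CPM. The common coefficient of biological variation between libraries was 0.0958 for BV2, 0.133 for GL261 and 0.222 for BMDM in the co-culture experiment, and 0.205 for BV2 and 0.381 for BMDM in the panobinostat experiment. None of the 12 myeloid markers was at 0 in any BV2 or BMDM group. Of the 5 microglial markers, 4 had a mean of at least 1 plain CPM in BV2 monoculture at each oxygen level, and Sall1 was at 0. Their sum was 121.8 to 128.6 plain CPM in normoxia and 314.3 to 328.2 in hypoxia. In BMDM monoculture the sum of the same 5 was 562.8 to 798.7 in normoxia and 327.8 to 410.2 in hypoxia, so it did not mark BV2 off from BMDM. Of the 12 glial and glioma markers, 10 had such a mean in GL261 monoculture at each oxygen level, and Sox9 was at 0 in GL261. Their sum was 2601 to 3068 plain CPM in normoxia and 1932 to 1958 in hypoxia. In BMDM monoculture the sum of these 12 was 214.1 to 291.7 in normoxia and 154.9 to 199.4 in hypoxia. In BMDM of the panobinostat experiment the summed level of 5 fibroblast markers (Col1a1, Col1a2, Dcn, Lum, Pdgfrb) was 2577 to 19750 plain CPM, against 60.6 to 546 in BMDM of the co-culture experiment. In bulk RNA, fewer cells of a type and less RNA per cell cannot be told apart.

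In hypoxia most of the antioxidant effectors were lower in BV2 and GL261 cells while Slc7a11 was higher. A gene is called where edgeR's quasi-likelihood test gave a Benjamini-Hochberg adjusted p under 0.05 over all genes tested. In BV2 monoculture 2 of the 10 genes rose and 6 fell, where 30.9% of all tested genes rose and 31% fell, and the median log2 fold change was -0.79 for the 10 genes against 0 for all genes. In GL261 monoculture 2 rose and 6 fell, where 23.2% of all genes rose and 21.4% fell, with a median of -0.63 against -0.03. In BMDM monoculture 3 rose and 0 fell, where 13.3% rose and 10.6% fell, with a median of 0.51 against 0.03. In co-culture 1 rose and 7 fell in BV2 (35.2% and 32.1% of all genes), 2 rose and 5 fell in GL261 (26.8% and 25.6%), and 3 rose and 1 fell in BMDM (17.5% and 17.3%). None of the 3 BMDM monoculture calls was kept when any 1 of the 4 monoculture libraries was left out.

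**Figure D1:**
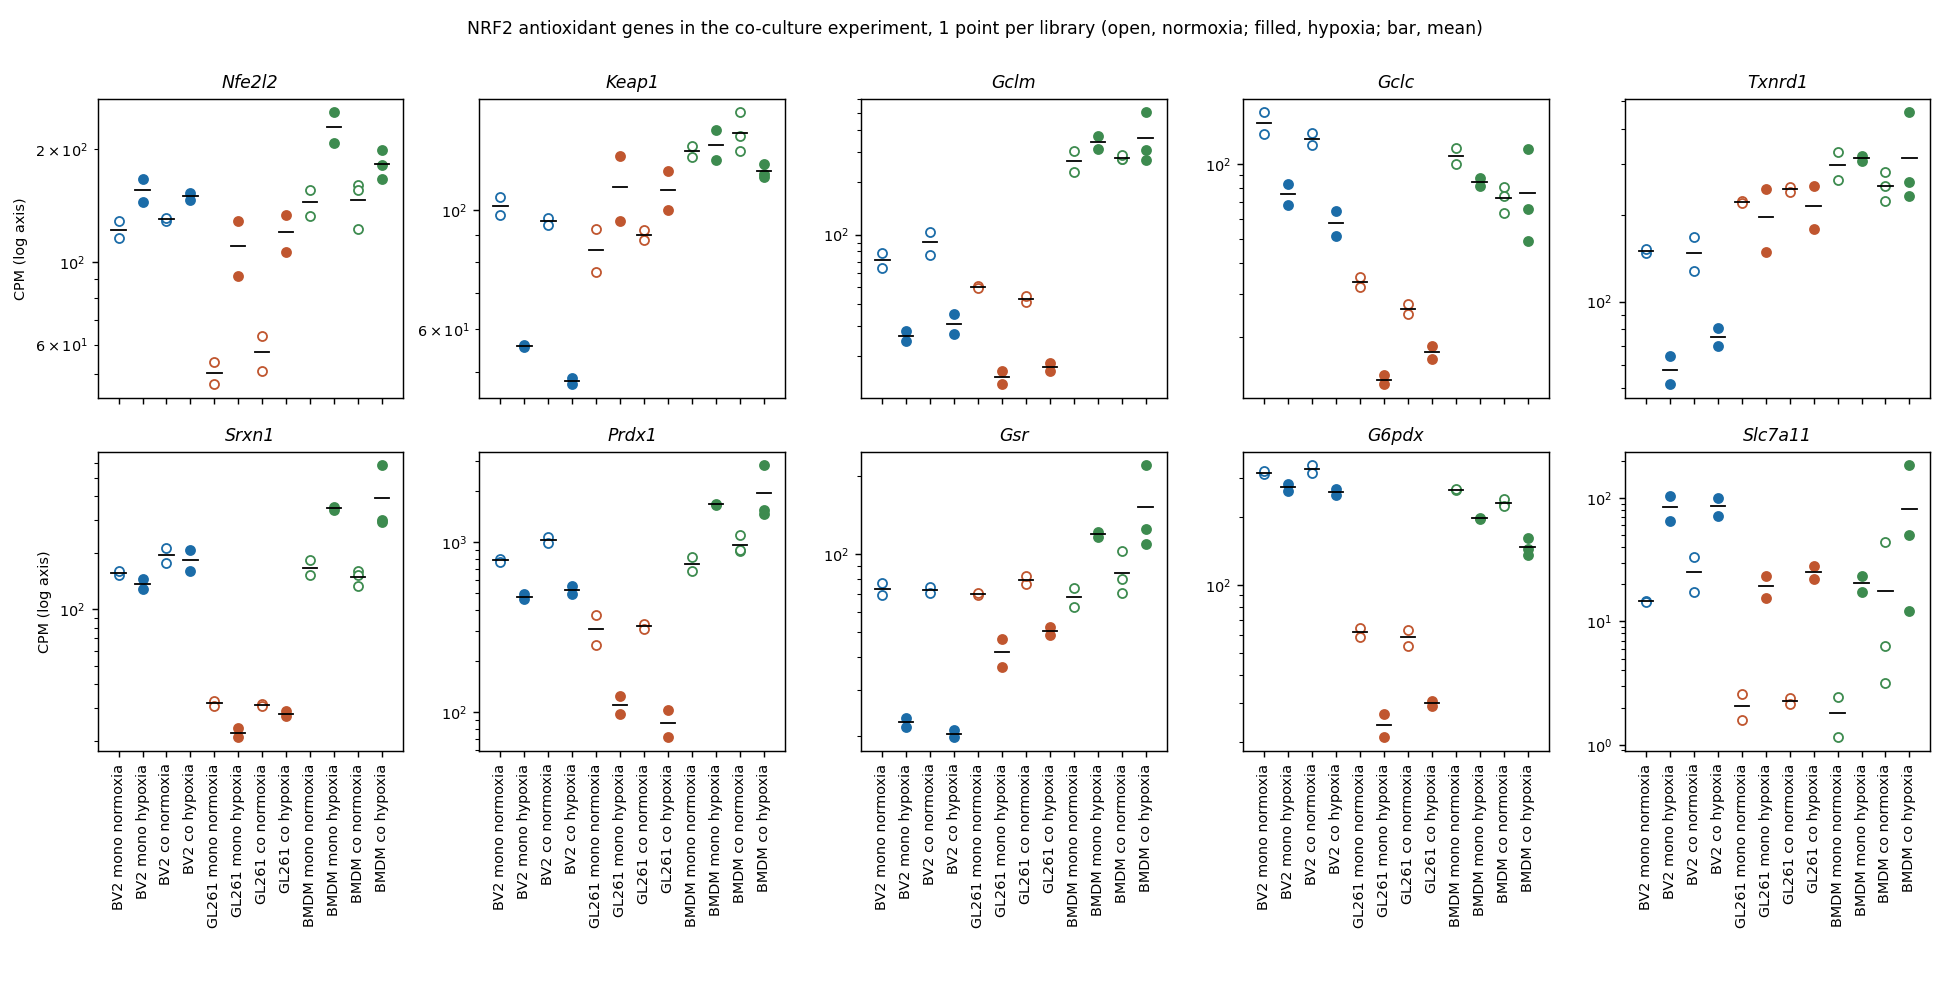
Each panel shows 1 gene, with CPM on a log axis and 1 point per library of the co-culture experiment; open points are normoxia, filled points hypoxia, and bars are group means. Gsr in BV2 cells lies between 69.5 and 77.5 CPM in the normoxic and between 19.7 and 23.4 in the hypoxic libraries, and Slc7a11 is higher in hypoxia than in normoxia in each monoculture.

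The transcription factor gene itself, Nfe2l2 (chr2:75675513-75704641, minus strand), was higher in hypoxia in all 3 monocultures. In BV2 monoculture it stood at 116 and 128 CPM in normoxia and at 144 and 166 in hypoxia, groups that did not overlap (log2 fold change 0.35, SE 0.11, edgeR adjusted p = 0.0127). The adjusted p was 0.121 without BV2 monoculture hypoxia replicate 2 and 0.131 without normoxia replicate 1. In GL261 monoculture it stood at 47.0 and 54.0 CPM in normoxia against 128 and 91.6 in hypoxia (1.13, SE 0.19, edgeR adjusted p = 0.000634). The normoxic GL261 level was below that of BV2, and all hypoxic GL261 libraries were above the normoxic ones. BMDM monoculture had 156 and 133 CPM in normoxia and 208 and 251 in hypoxia, without overlap (0.67, SE 0.18, edgeR adjusted p = 0.0234). In co-culture the GL261 value was 1.07 (SE 0.19, edgeR adjusted p = 0.000601). BV2 co-culture (0.20, edgeR adjusted p = 0.117) and BMDM co-culture (0.32, edgeR adjusted p = 0.124) did not pass the threshold.

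Keap1 (chr9:21229730-21239361, minus strand), the adaptor that presents NRF2 to the CUL3 ubiquitin ligase, was called lower in BV2 cells and was not called in GL261 or BMDM of this experiment. BV2 monoculture had 97.9 and 106 CPM in normoxia and 55.6 and 56.0 in hypoxia, so that the hypoxic libraries lay far below the normoxic ones (log2 fold change -0.87, SE 0.11, edgeR adjusted p = 2.86e-06). BV2 co-culture showed -0.98 (SE 0.11, edgeR adjusted p = 7.36e-07). In GL261 monoculture the libraries stood at 92.0 and 76.7 CPM in normoxia and 126 and 95.3 in hypoxia, without overlap (0.39, SE 0.16, edgeR adjusted p = 0.0654), and the value was 0.59 without hypoxia replicate 2 (edgeR adjusted p = 0.0105). BMDM monoculture had 131 and 126 against 141 and 124 CPM, with overlapping groups. The difference between the BV2 and GL261 responses was itself tested and was -1.16 (SE 0.19, edgeR adjusted p = 0.000111).

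Slc7a11 (chr3:49892526-50443614, minus strand) encodes the cystine-importing subunit of the cystine/glutamate exchanger, which supplies cysteine for glutathione. It was the gene with the largest rise of the 10 in BV2 and GL261 monoculture. BV2 monoculture had 14.6 and 14.4 CPM in normoxia and 65.8 and 103 in hypoxia (log2 fold change 2.54, SE 0.26, edgeR adjusted p = 3.05e-07), a 5.82-fold difference. GL261 monoculture had 2.56 and 1.60 CPM in normoxia, 50 and 30 reads, and 23.2 and 15.5 CPM in hypoxia (3.22, SE 0.28, edgeR adjusted p = 1.11e-05). Neither cell line showed any overlap between oxygen levels. BMDM monoculture had 1.15 and 2.46 CPM in normoxia, 21 and 39 reads, and 17.3 and 23.3 CPM in hypoxia, again without overlap, but the test did not pass (3.51, SE 1.39, edgeR adjusted p = 0.0897).

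The BMDM co-cultures differed widely among themselves in Slc7a11. The normoxic libraries had 3.15, 43.7 and 6.27 CPM and the hypoxic ones 12.2, 184 and 50.2, so that replicate 2 was the highest at both oxygen levels and the groups overlapped. Cell type markers also set these libraries apart: the sum of the 4 neutrophil markers was 19.2 plain CPM in normoxia replicate 2 and 0 to 0.908 in the other co-culture libraries, with Ly6g, S100a9 and Mpo at 0 in these groups. In hypoxia replicate 2 the myeloid sum was 10120 plain CPM against 14120 and 18150 in replicates 1 and 3, and the sum of the 5 microglial markers was 172 against 368 and 322. Hypoxia replicate 2 was also the highest co-culture library for Prdx1, Srxn1 and Gsr, and the part of the marker differences in these results was not tested. The log2 fold change was 2.21 (SE 0.96, edgeR adjusted p = 0.0964). The same-numbered co-cultures deviated together (correlations of 0.455, 0.244 and 0.407), and with the replicate number as a block the value was 2.29 with an edgeR adjusted p of 0.0105. Without hypoxia replicate 2 the value was 0.80 (edgeR adjusted p = 0.52), without normoxia replicate 2 it was 4.18 (edgeR adjusted p = 0.0107), and without hypoxia replicate 1 it was 2.73 (edgeR adjusted p = 0.028). In co-cultured GL261 the rise was 3.46 (SE 0.28, edgeR adjusted p = 4.17e-06) and in co-cultured BV2 1.78 (SE 0.25, edgeR adjusted p = 1.06e-05).

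The subunits of glutamate-cysteine ligase, which catalyses the first and rate-limiting step of glutathione synthesis, went the other way from Slc7a11 in both lines. Gclm (chr3:122245557-122270732, plus strand), the modifier subunit, had 63.9 and 78.9 CPM in normoxic and 24.4 and 27.9 in hypoxic BV2 monoculture (log2 fold change -1.45 with SE 0.17, edgeR adjusted p = 1.28e-06). In GL261 monoculture it went from 50.3 and 49.6 CPM to 16.4 and 13.8 (-1.72, SE 0.14, edgeR adjusted p = 8.9e-06). The hypoxic libraries of both lines were all below the normoxic ones. Gclc (chr9:77754535-77794485, plus strand), the catalytic subunit, had 132 and 162 CPM in normoxic and 68.2 and 83.3 in hypoxic BV2 monoculture (-0.96, SE 0.14, edgeR adjusted p = 2.13e-05). In GL261 monoculture it had 31.9 and 35.2 against 12.9 and 14.0 CPM (-1.32, SE 0.15, edgeR adjusted p = 5.59e-05). No overlap was seen in either line.

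The same subunits also fell in the co-cultured lines, Gclm by 1.55 on the log2 scale in BV2 and by 1.30 in GL261, and Gclc by 1.13 and 0.59. For GL261 co-culture Gclc the edgeR adjusted p was 0.00651, and it was 0.0623 without co-culture hypoxia replicate 1 and 0.0711 without normoxia replicate 1. In BMDM monoculture Gclm stood at 228 and 303 CPM in normoxia and 310.1 and 369 in hypoxia, and Gclc at 100.1 and 116 against 81.4 and 88.0. Neither passed the test (edgeR adjusted p = 0.372 and 0.446), although neither pair of groups overlapped. Of the 75-base words of Gclm, 2.84% also occur in transcripts of Ppia, so reads could be shared.

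Txnrd1 (chr10:82833951-82897712, plus strand), the cytosolic thioredoxin reductase, fell in BV2 cells and did not pass the test in the other cell types. BV2 monoculture had 147 and 152 CPM in normoxia and 51.5 and 64.5 in hypoxia, a wide gap between groups (log2 fold change -1.37, SE 0.14, edgeR adjusted p = 5.24e-07). BV2 co-culture showed -0.97 (SE 0.14, edgeR adjusted p = 1.93e-05). GL261 monoculture had 224 and 219.8 CPM in normoxia and 247 and 148 in hypoxia, the 2 hypoxic libraries lying on either side of the normoxic ones (-0.17, SE 0.22, edgeR adjusted p = 0.558). The value without GL261 monoculture hypoxia replicate 1, the higher library, was -0.55 (edgeR adjusted p = 0.0454). BMDM monoculture had 265 and 333 against 308 and 322 CPM, with overlap.

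Prdx1 and Srxn1 are a working pair: peroxiredoxin 1 reduces hydrogen peroxide, and sulfiredoxin repairs it when its catalytic cysteine is over-oxidised. Prdx1 (chr4:116685544-116700822, plus strand) fell in both lines and rose in BMDM. BV2 monoculture had 800.2 and 768 CPM in normoxia and 494 and 461 in hypoxia (log2 fold change -0.72, SE 0.11, edgeR adjusted p = 4.49e-05). GL261 monoculture had 375 and 247 against 124 and 97.2 CPM (-1.49, SE 0.22, edgeR adjusted p = 0.000306). BMDM monoculture had 679 and 818 against 1677 and 1662 CPM, so that both hypoxic libraries were above both normoxic ones (1.16, SE 0.29, edgeR adjusted p = 0.0153). In BMDM co-culture normoxia gave 884, 1109 and 901 CPM and hypoxia 1465, 2836 and 1549.9, without overlap (1.02, SE 0.23, edgeR adjusted p = 0.00655). Without hypoxia replicate 2, the highest library, the value was 0.63 (edgeR adjusted p = 0.00837). Of the 75-base words of Prdx1, 4.03% also occur in transcripts of other genes, 2.19% in Gm21399.

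Srxn1 (chr2:152105516-152111376, plus strand) was called higher in hypoxic BMDM in both culture types. BMDM monoculture had 152 and 182 CPM in normoxia and 339 and 351 in hypoxia (log2 fold change 1.05, SE 0.30, edgeR adjusted p = 0.0257). The co-cultures had 160.4, 153 and 133 CPM in normoxia and 289.8, 582 and 299.9 in hypoxia (1.39, SE 0.24, edgeR adjusted p = 0.00138), and 0.97 without hypoxia replicate 2 (edgeR adjusted p = 0.000481). All hypoxic libraries were above all normoxic ones. In GL261 monoculture it fell from 32.7 and 30.7 to 23.3 and 20.9 CPM (-0.52, SE 0.14, edgeR adjusted p = 0.00877), with an adjusted p of 0.0538 without normoxia replicate 1. BV2 monoculture had 151 and 159.8 against 144 and 129 CPM (-0.19, edgeR adjusted p = 0.229).

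Glutathione reductase and glucose-6-phosphate dehydrogenase keep glutathione reduced, the former by spending NADPH and the latter by making it. Gsr (chr8:33652523-33698163, plus strand) had the largest fall of the 10 in BV2 monoculture, from 69.5 and 77.5 CPM in normoxia to 23.4 and 21.7 in hypoxia (log2 fold change -1.71, SE 0.12, edgeR adjusted p = 5.88e-09), a 3.26-fold difference. GL261 monoculture went from 69.7 and 70.9 to 46.9 and 36.9 CPM (-0.74, SE 0.14, edgeR adjusted p = 0.00128). The lines therefore started from similar levels and ended apart. BMDM monoculture had 62.3 and 74.2 CPM in normoxia and 122 and 117 in hypoxia, higher in both libraries without passing the test (0.81, SE 0.30, edgeR adjusted p = 0.0713). In BMDM co-culture it was called higher, from 70.6, 103 and 79.9 to 109, 219.6 and 125 CPM (0.84, SE 0.24, edgeR adjusted p = 0.0196). That call was lost without hypoxia replicate 2 (0.46, edgeR adjusted p = 0.0585), normoxia replicate 1 (adjusted p = 0.0832) or normoxia replicate 3 (adjusted p = 0.0591).

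G6pdx (chrX:74409483-74429194, minus strand) fell in GL261 cells and in co-cultured BV2 and BMDM. GL261 monoculture had 64.3 and 59.1 CPM in normoxia and 26.8 and 21.1 in hypoxia (log2 fold change -1.36, SE 0.15, edgeR adjusted p = 4.84e-05). BV2 monoculture had 310.4 and 320.2 against 281 and 263 CPM, a gap without overlap that did not pass (-0.22, SE 0.11, edgeR adjusted p = 0.0919). BMDM monoculture had 264 and 267 against 197 and 199 CPM, just outside the threshold (-0.42, SE 0.14, edgeR adjusted p = 0.0503). The BMDM co-cultures had 229, 241 and 224 CPM in normoxia and 145, 161 and 136 in hypoxia (-0.65, SE 0.12, edgeR adjusted p = 0.00158). G6pdx thus was lower in all hypoxic BMDM libraries while Prdx1 and Srxn1 were higher. In BV2 co-culture the value was -0.34 (edgeR adjusted p = 0.0101), and its adjusted p was 0.0858 without co-culture normoxia replicate 1. Of its 75-base words, 1.62% also occur in G6pd2.

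**Figure D2:**
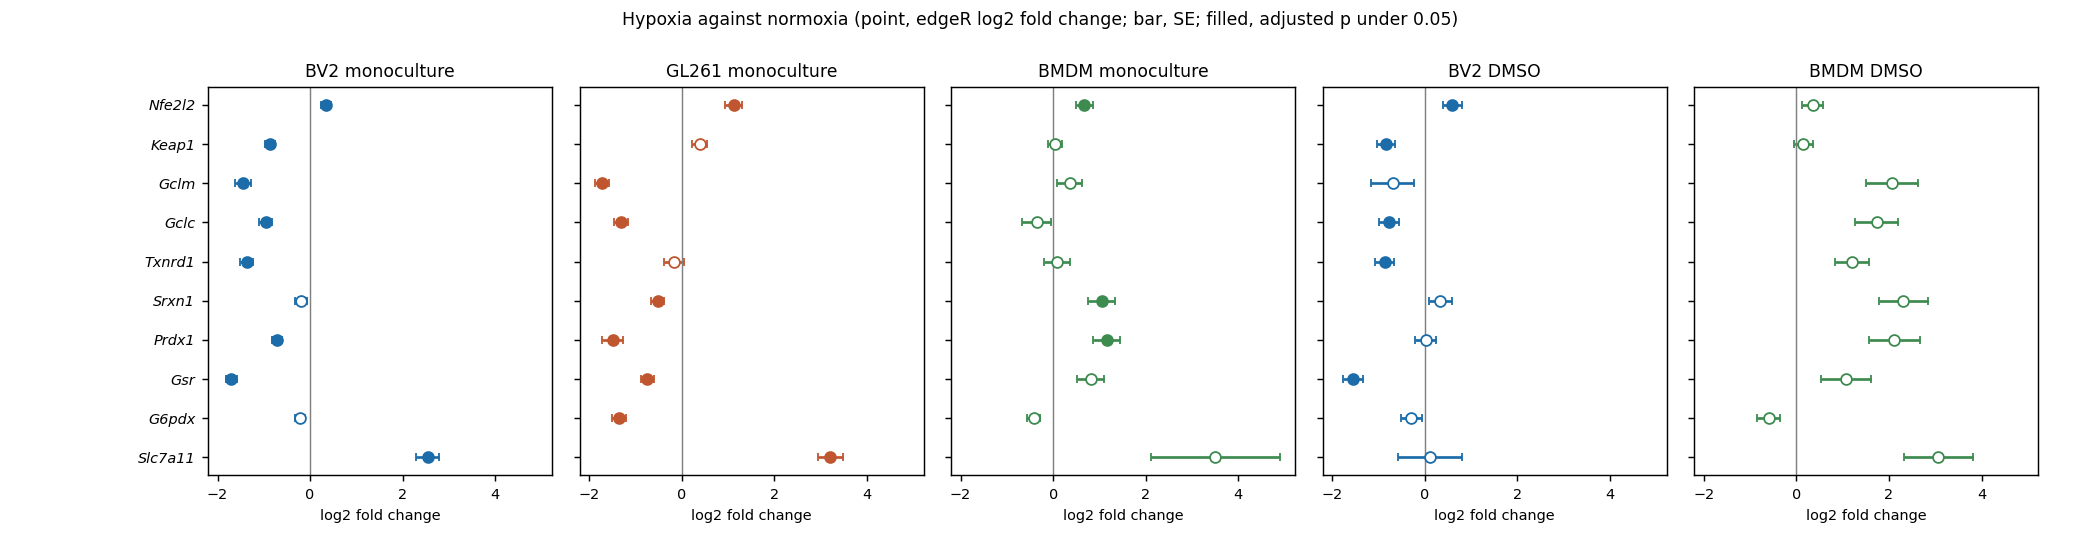
Points are edgeR log2 fold changes of hypoxia against normoxia for the 10 genes in 5 pairs of groups, bars are standard errors, and filled points passed the adjusted p threshold. Prdx1 is at -0.72 in BV2 monoculture, -1.49 in GL261 monoculture and 1.16 in BMDM monoculture, and no gene passed in BMDM with DMSO in this fit without a replicate block.

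The responses of BV2 and GL261 monocultures were compared in 1 fit of all 16 libraries. The hypoxia effect differed for 6 of the 10 genes, where 37.4% of all genes differed and the median difference over all genes was 0.15. Prdx1 (difference 0.87, SE 0.26, edgeR adjusted p = 0.0117) and G6pdx (1.25, SE 0.18, edgeR adjusted p = 2.82e-05) fell less in BV2 than in GL261. Gsr (-0.86, SE 0.18, edgeR adjusted p = 0.000803) fell more in BV2, and Nfe2l2 rose less there (-0.68, SE 0.23, edgeR adjusted p = 0.0249). Txnrd1 had a difference of -1.10 (SE 0.29, edgeR adjusted p = 0.00536), and Keap1 is given above. The Nfe2l2 difference did not pass without BV2 hypoxia replicate 1, BV2 normoxia replicate 2, GL261 hypoxia replicate 1 or GL261 normoxia replicate 1, nor the Prdx1 difference without BV2 normoxia replicate 2, GL261 hypoxia replicate 2 or GL261 normoxia replicate 1 (where it was 0.48). For Gclm (0.37), Gclc (0.46), Srxn1 (0.43) and Slc7a11 (-0.58) the difference did not pass. The BMDM of the co-culture experiment stand in another count table, so their responses were set beside those of the lines without a test of the difference.

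The normoxic starting levels also differed between the lines. In monoculture 8 of the 10 genes were higher in BV2 than in GL261 and 0 were lower, where 33.8% of all genes were higher and 39.4% lower. With DESeq2 8 were higher and 1 lower, where 12069 of all genes were called against 12353 in the main fit. The DESeq2 size factors, both other filters and the replicate block also each gave 1 gene called lower. G6pdx (log2 difference 2.47, SE 0.13), Srxn1 (2.41, SE 0.14), Gclc (2.25, SE 0.15) and Slc7a11 (2.91, SE 0.36) were furthest apart. Txnrd1 (-0.45, edgeR adjusted p = 0.0536) and Gsr (0.18, edgeR adjusted p = 0.19) did not pass, and the Keap1 call was lost without BV2 normoxia replicate 2 or GL261 normoxia replicate 2. Per kilobase of exon, Prdx1 was the most abundant of the 10 in normoxia, at 258 CPM per kb in BV2, 102 in GL261 and 246 in BMDM monoculture. Slc7a11 was the least abundant, at 1.04, 0.149 and 0.129 CPM per kb. Between these ends the order differed: G6pdx came second in BV2 (102) and BMDM (86.3 CPM per kb), and Txnrd1 in GL261 (31.3 CPM per kb).

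Other genes around NRF2 were also called in these monocultures. For the list counts here and in the next paragraphs, the shares over all genes were 30.9% higher and 31% lower in BV2. They were 23.2% and 21.4% in GL261 and 13.3% and 10.6% in BMDM. Of 16 NRF2 partners and regulators, 11 rose and 1 fell in hypoxic BV2 (median log2 fold change 0.61), 10 rose and 3 fell in GL261 (0.57) and 8 rose and 1 fell in BMDM (0.82). The small MAF gene Maff, whose product pairs with NRF2 and also forms dimers without an activation domain, had the largest rise in each: 3.53 (SE 0.18) in BV2, 3.90 (SE 0.30) in GL261 and 3.79 (SE 0.26) in BMDM. In BV2 this was 3.88 ± 0.745 CPM in normoxia against 45.0 ± 4.61 in hypoxia (SD, n = 2). The largest falls were Rbx1, a ring subunit of cullin ligases, in BV2 (-0.68) and Park7, which encodes the redox-sensitive protein DJ-1, in GL261 (-1.25) and BMDM (-0.72). Sqstm1, whose product p62 can displace NRF2 from KEAP1, rose in all 3 (1.77, 1.46 and 2.00); it was singled out after its values were seen.

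Hmox1 encodes haem oxygenase 1, a target of NRF2 and of its competitor BACH1, and it rose strongly. It went from 168 ± 4.78 to 1212 ± 125 CPM in BV2 monoculture (SD, n = 2), a log2 fold change of 2.85 with an edgeR adjusted p of 6.38e-11. In GL261 monoculture it went from 27.8 ± 8.11 to 136 ± 1.32 CPM (2.29) and in BMDM monoculture from 1421 ± 59.0 to 4368 ± 996 CPM (1.62), both past the threshold. The BMDM call was lost without hypoxia replicate 1, normoxia replicate 1 or normoxia replicate 2. Nqo1, the quinone reductase often used as an NRF2 readout, fell in hypoxic BV2 (-1.54, from 1.83 to 0.624 CPM) and GL261 monoculture (-1.57, from 32.9 to 11.0 CPM). In BMDM monoculture it was at -0.55 (edgeR adjusted p = 0.539). The BV2 Nqo1 call was lost without hypoxia replicate 1, hypoxia replicate 2 or normoxia replicate 2, and the GL261 call without normoxia replicate 1. Hmox1 and Nqo1 were thus called in opposite directions in both lines. The list of 20 quinone, haem and iron genes that holds them had 6 of 18 tested genes higher and 2 lower in BV2 (median 0.10), 2 higher and 9 lower of 20 in GL261 (-0.48), where Ptgr1 had the largest fall (-2.16), and 2 higher and 2 lower of 19 in BMDM (0.11), where Cbr3 fell by 0.85 on the log2 scale.

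Txn1, the thioredoxin that TXNRD1 reduces, fell in BV2 monoculture (log2 fold change -1.45, 241 ± 22.7 to 88.1 ± 11.4 CPM, SD, n = 2) and GL261 monoculture (-1.76). In BMDM monoculture it was at -0.35 (edgeR adjusted p = 0.15) and in BMDM co-culture it fell by 0.50 on the log2 scale. Of the 15 further thioredoxin and peroxiredoxin genes, Txn1 included, 6 rose and 4 fell in BV2 monoculture, 4 rose and 8 fell in GL261 and 4 rose and 3 fell in BMDM, with medians of 0.31, -0.61 and 0.18. The mitochondrial peroxiredoxin Prdx3 had the largest fall in BV2 (-1.48), and Sesn1 in BMDM (-1.86). Txnip, which encodes an inhibitor of thioredoxin, had the largest rise in GL261 (2.25, SE 0.26), and Sesn2 in BV2 (2.38) and BMDM (1.38).

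Among 29 other genes of glutathione synthesis and use, 20 were tested in BV2, of which 5 rose and 7 fell in monoculture (median log2 fold change -0.20). In GL261 4 rose and 8 fell of 23 (-0.27), and in BMDM 7 rose and 0 fell of 23 (-0.10). Chac1, which degrades glutathione, rose most in both lines (2.99 in BV2 and 3.12 in GL261), and Gsta3 in BMDM (3.06, SE 0.86). Ggct fell most in BV2 (-2.47) and Gsta4 in GL261 (-1.75). Of 11 genes of NADPH supply, 3 rose and 4 fell in BV2 (median -0.24), 2 rose and 6 fell in GL261 (-0.47), and 0 rose and 2 fell of 10 tested in BMDM (-0.26). In BV2 the counts of the glutathione and NADPH lists were near the shares over all genes, 30.9% higher and 31% lower. The NAD kinase gene Nadk had the largest fall in BV2 (-1.83), the pentose phosphate gene Tkt in GL261 (-1.20) and Idh2 in BMDM (-0.70). Me1 had the largest rise in BV2 (1.33) and Mthfd2 in GL261 (1.16). Of the 4 superoxide and peroxide genes, all 4 fell in GL261 (median -0.97; Sod1 -1.41), while 1 rose and 1 fell in BV2 (Cat 0.62, Sod2 -1.09) and 1 rose in BMDM (Cat 1.21).

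Slc7a11 is also a target of ATF4, the factor of the amino acid response. Whether ATF4 acted on Slc7a11 in these cells was not tested. Slc7a11 itself was not called in BMDM monoculture, nor in BMDM co-culture without the replicate block. All 8 of the listed genes (Atf4, Ddit3, Atf3, Trib3, Asns, Atf5, Sesn2 and Chac1, the last 2 also in lists above) rose in hypoxia in each of the 6 comparisons of the co-culture experiment. Their median log2 fold changes were 2.59 in BV2, 2.58 in GL261 and 2.23 in BMDM monoculture, and 2.36 to 3.00 in co-culture. Over all genes 13.3% to 35.2% rose in these comparisons. Trib3, a pseudokinase gene induced by ATF4, had the largest rise in BV2 (5.05, SE 0.18) and BMDM monoculture (5.96, SE 0.35), and Atf3 in GL261 monoculture (4.38, SE 0.24). In BMDM monoculture fewer of the 8 were called without hypoxia replicate 2, normoxia replicate 1 or normoxia replicate 2. The list was drawn up around Slc7a11 with earlier results known, so its direction is not independent evidence.

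**Figure D3:**
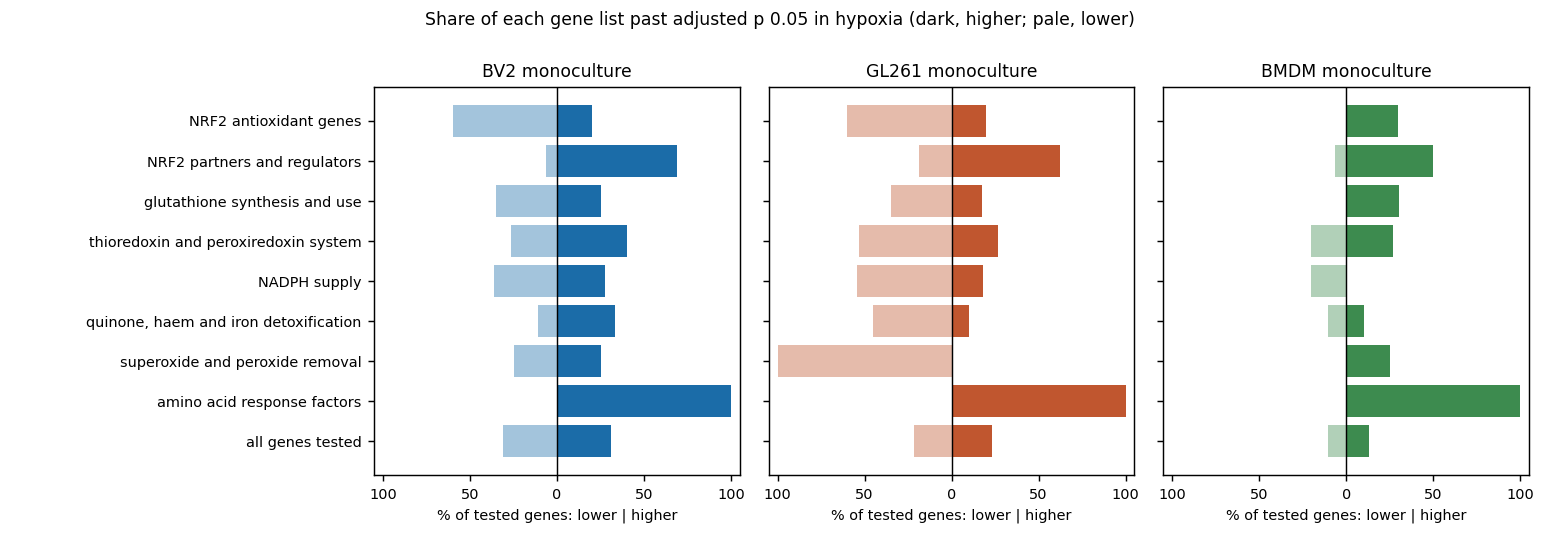
Bars give the percentage of each list's tested genes that were higher (dark, to the right) or lower (pale, to the left) in hypoxia at an adjusted p under 0.05, for 3 monocultures, with all tested genes in the bottom row. All 8 amino acid response genes are higher in each cell type, and all 4 superoxide and peroxide genes are lower in GL261.

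Few of the 10 genes were called for co-culture, which is near the shares over all genes given here. In normoxic BV2 only Prdx1 was called, from 800.2 and 768 CPM in monoculture to 1070.2 and 991 in co-culture (log2 fold change 0.39, SE 0.11, edgeR adjusted p = 0.0298). This was 1 gene higher and 0 lower, where 5.77% of all genes were higher and 9.14% lower. In hypoxic BV2 only Srxn1 was called, from 144 and 129 to 207 and 160.7 CPM (0.43, SE 0.13, edgeR adjusted p = 0.0382), against 8.13% higher and 7.57% lower over all genes. The groups did not overlap for either gene. Outside the 10, Nqo1 (1.45, SE 0.39, edgeR adjusted p = 0.0228) and Hmox1 (0.44, SE 0.12, edgeR adjusted p = 0.0201) were called higher in normoxic BV2 co-culture. Nqo1 stood at 1.83 ± 0.307 CPM in monoculture and 5.08 ± 2.89 in co-culture (SD, n = 2). Txn1 did not pass there (0.36, edgeR adjusted p = 0.0555), and none of these was called for co-culture in hypoxic BV2, GL261 or BMDM. The Prdx1 call was lost without any 1 of the 4 libraries (adjusted p 0.0815 to 0.205), and the Srxn1 call without hypoxic co-culture replicate 1, where the value was 0.17, or without either monoculture library (adjusted p 0.106 and 0.309).

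In BV2 co-culture Slc7a11 had 33.2 and 17.3 CPM in normoxia, above the 14.6 and 14.4 of monoculture, but did not pass (log2 fold change 0.79, SE 0.26, edgeR adjusted p = 0.0531), while without co-culture replicate 2 the value was 1.18 (edgeR adjusted p = 0.00366). GL261 co-culture gave edgeR calls for 0 of the 10 genes in normoxia, where 0.323% of all genes were higher and 0.191% lower, and for 0 in hypoxia (0.889% and 0.5%). BMDM co-culture gave 0 in normoxia (1.57% and 0.0675%) and 0 in hypoxia (4.06% and 3.05%). DESeq2 also called 0 in these comparisons, except 1 in hypoxic BMDM. The largest of these values was Slc7a11 in normoxic BMDM co-culture (3.32, SE 1.33, edgeR adjusted p = 0.313), where replicate 2 had 43.7 CPM and the others 3.15 and 6.27. In hypoxic BMDM, G6pdx stood at 145, 161 and 136 CPM in co-culture against 197 and 199 in monoculture, without overlap (-0.42, SE 0.13, edgeR adjusted p = 0.0715), and the value was -0.49 without co-culture replicate 2 (edgeR adjusted p = 0.0416). For the interaction of co-culture and hypoxia edgeR and DESeq2 called 0 of the 10 genes in BV2, GL261 and BMDM, where edgeR called 2.19%, 0% and 0% of all genes.

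Transcripts of the partner cells were present in the co-culture libraries. Genes marking the partner gave shares of partner RNA of 0.760% ± 0.271 in normoxic and 2.22% ± 0.202 in hypoxic BV2 co-cultures (SD, n = 2). They gave 0.773% ± 0.202 and 0.237% ± 0.0266 in GL261 (SD, n = 2), and 2.43% ± 1.21 and 3.74% ± 2.32 in BMDM (SD, n = 3). At these shares the partner would contribute at most 6.82% of the level of any of the 10 genes in any co-culture library. The part of partner RNA in the co-culture values was not tested further.

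In the panobinostat experiment the DMSO-treated BV2 cells again showed lower Keap1, Gclc, Txnrd1 and Gsr and higher Nfe2l2 in hypoxia. Of the 10 genes 1 rose and 4 fell, where 17.2% of all genes rose and 20.2% fell, with a median log2 fold change of -0.49 against -0.03. Gsr had 69.0 and 79.4 CPM in normoxia and 22.3 and 28.3 in hypoxia (-1.55, SE 0.22, edgeR adjusted p = 0.000758). Keap1 had 109.6 and 129.8 against 67.4 and 67.0 CPM (-0.83, SE 0.20, edgeR adjusted p = 0.00839). Hypoxic libraries of both genes were well below the normoxic ones. Txnrd1 fell by 0.86 and Gclc by 0.77 on the log2 scale, and Nfe2l2 rose by 0.59 (SE 0.20, edgeR adjusted p = 0.0438). The call was lost for Nfe2l2 without normoxia replicate 1 (adjusted p = 0.104), hypoxia replicate 1 (0.202) or hypoxia replicate 2 (0.0943), for Keap1 without hypoxia replicate 1 (0.0511), and for Gclc (0.123) and Txnrd1 (0.0688) without hypoxia replicate 2. Fewer of the 10 genes were called without hypoxia replicate 1 or without hypoxia replicate 2. Same-numbered libraries of this experiment deviated together in each cell type, with correlations of 0.154 to 0.389 in BV2 and 0.336 to 0.593 in BMDM. With the replicate number as a block 1 gene was called higher and 5 lower in BV2 with DMSO, where 22.6% of all genes were higher and 26.4% lower, and the gene added was Gclm (-0.70, edgeR adjusted p = 0.0076).

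Slc7a11 and Prdx1 in BV2 with DMSO did not show the pattern of BV2 monoculture. Slc7a11 had 285 and 30.9 CPM in normoxia and 188 and 154 in hypoxia, so that the normoxic libraries lay on either side of the hypoxic ones (log2 fold change 0.12, SE 0.69, edgeR adjusted p = 0.91). Without normoxia replicate 1 the value was 2.50 (edgeR adjusted p = 0.00136), and without normoxia replicate 2 it was -0.71 (edgeR adjusted p = 0.0412). Of the 8 amino acid response genes 7 rose (median 2.02), where 17.2% of all genes rose. Prdx1 stood at 429 and 510.5 against 492 and 459.6 CPM, with overlap (0.02, SE 0.22, edgeR adjusted p = 0.953).

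In BMDM with DMSO edgeR called 0 of the 10 genes in hypoxia, where 0.469% of all genes were higher and 0.0134% lower, although Gclm, Gclc, Srxn1, Prdx1 and Slc7a11 had log2 fold changes of 1.73 to 3.07. Prdx1 had 482 and 544 CPM in normoxia and 3296 and 1162 in hypoxia (2.12, SE 0.54, edgeR adjusted p = 0.0998). Srxn1 had 89.0 and 137 against 771 and 349.8 CPM (2.31, SE 0.53, edgeR adjusted p = 0.087), and Slc7a11 42.3 and 20.9 against 406 and 125 CPM (3.07, SE 0.74, edgeR adjusted p = 0.0926). The groups did not overlap, and hypoxia replicate 1 was far above replicate 2 in all 3 genes. Gclm (2.06) and Gclc (1.73) had adjusted p-values of 0.106 and 0.108, with Gclm at 104.5 and 220.3 CPM in normoxia and 929 and 429.6 in hypoxia. The median over the 10 genes was 1.47, against -0.01 for all genes. G6pdx was at -0.60 (edgeR adjusted p = 0.203). Of the 8 amino acid response genes 3 rose, where 0.469% of all genes did. Fewer were called without hypoxia replicate 1, normoxia replicate 1 or normoxia replicate 2.

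The count in BMDM with DMSO depended on the test, the block and single libraries. DESeq2 called 6 of the 10 genes higher and 0 lower, where it called 8.99% of all genes higher. With the replicate block edgeR called 2 higher, Srxn1 (edgeR adjusted p = 0.0403) and Slc7a11 (2.93, edgeR adjusted p = 0.0134), where 7.86% of all genes were, and 7 of the 8 amino acid response genes. Without the block, the edgeR count also changed when hypoxia replicate 2 was left out. Without hypoxia replicate 1 the log2 fold changes were 1.12 for Prdx1, 1.57 for Srxn1 and 1.93 for Slc7a11. Cell type markers moved with these values: the fibroblast sum was 19750 and 19360 plain CPM in the normoxic and 2577 and 13320 in the hypoxic libraries, replicates 1 and 2, and the myeloid sum was 30070 and 20290 against 4816 and 12170. Hypoxia replicate 1, with the highest Prdx1, Srxn1 and Slc7a11, had the lowest of both sums among the DMSO libraries, and the part of this in the result was not tested.

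The hypoxia responses of BV2 and BMDM with DMSO were compared in 1 fit of 12 libraries. The log2 difference, BV2 minus BMDM, was -2.70 for Gclm, -2.44 for Gclc and -2.58 for Gsr, with edgeR adjusted p-values of 0.139, 0.0681 and 0.0783, and for Txnrd1 the adjusted p was 0.063. So 0 of the 10 genes passed, where 0.664% of all genes did. DESeq2 called 7 of them lower in this comparison, against 4.42% of all genes. The edgeR count also changed when BMDM DMSO hypoxia replicate 2 or BMDM DMSO normoxia replicate 2 was left out. In normoxia with DMSO, Gclc (log2 difference 1.10, SE 0.39) and G6pdx (0.66, SE 0.24) were higher and Nfe2l2 (-0.88, SE 0.20) lower in BV2 than in BMDM, which is 2 higher and 1 lower where 17.1% and 27.1% of all genes were. None of the 3 was called without BV2 DMSO normoxia replicate 1, and the calls of Gclc and G6pdx were also lost without BV2 DMSO normoxia replicate 2 or BMDM DMSO normoxia replicate 1. The fibroblast and myeloid sums given above apply to the same normoxic BMDM libraries.

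Panobinostat was compared with DMSO in hypoxia, so these values share the hypoxic DMSO libraries with the hypoxia effects above. In BV2 Gclc was called higher, from 95.6 and 74.9 to 159 and 130.4 CPM without overlap (log2 fold change 0.76, SE 0.21, edgeR adjusted p = 0.0395). This was 1 gene higher and 0 lower, where 7.21% of all genes were higher and 7.39% lower. The call was lost when any 1 of the 4 libraries was left out (values 0.59 to 0.94). Srxn1 went from 335 and 259 to 196 and 151 CPM without passing (-0.77, SE 0.26, edgeR adjusted p = 0.0703), and Slc7a11 from 188 and 154 to 77.5 and 65.4 (-1.26, SE 0.70, edgeR adjusted p = 0.248). Gclm had 102 and 61.7 CPM with DMSO and 62.7 and 19.6 with panobinostat, with overlap, and was at -2.07 without panobinostat replicate 1 (edgeR adjusted p = 0.0267). With the replicate block the call of Gclc stood, and Srxn1 (-0.77, edgeR adjusted p = 0.0048), Slc7a11 (-1.26, edgeR adjusted p = 0.0124) and Gclm (-1.13, edgeR adjusted p = 0.000311) were called lower. This was 1 gene higher and 3 lower, where 14.7% of all genes were higher and 15.5% lower. Other lists in BV2 held Gstt1, which rose by 4.48 (SE 0.45), Txnip (1.64) and Akr1b8 (1.28), and Msra (-2.54), Mthfd2 (-1.46), Blvra (-1.43), Mafg (-1.04) and Atf4 (-0.82), which fell.

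In BMDM the call for panobinostat depended on the replicate block. Without it edgeR called 0 of the 10 genes, where 0% of all genes were higher and 0% lower. With it edgeR called 3 lower, where 6.56% of all genes were lower: Keap1 (-1.12, edgeR adjusted p = 0.0281), Gsr (-1.27, edgeR adjusted p = 0.0459) and Slc7a11 (-1.71, edgeR adjusted p = 0.0245). DESeq2, without a block, also called 3 lower, against 6.99% of all genes. Keap1 had 121 and 103 CPM with DMSO and 49.8 and 52.7 with panobinostat, well apart (log2 fold change without the block -1.13, SE 0.21, edgeR adjusted p = 0.0644). Gclm had 929 and 429.6 against 237 and 154 CPM (-1.80, SE 0.55, edgeR adjusted p = 0.116). Prdx1 (-1.44), Gsr (-1.42), Srxn1 (-1.16) and Slc7a11 (-1.82) had lower means too. Gclc was at -0.03, and G6pdx was at 0.17 with a higher mean. Without DMSO hypoxia replicate 1 the values were -0.47 for Prdx1, -0.52 for Gsr and -0.69 for Slc7a11. The myeloid marker sum was 1469 and 5858 plain CPM with panobinostat and the fibroblast sum 8594 and 14050, and their part in the result was not tested. For the difference between the panobinostat effects in BV2 and BMDM edgeR and DESeq2 called 0 of the 10 genes, and edgeR called 0.0251% of all genes.

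**Figure D4:**
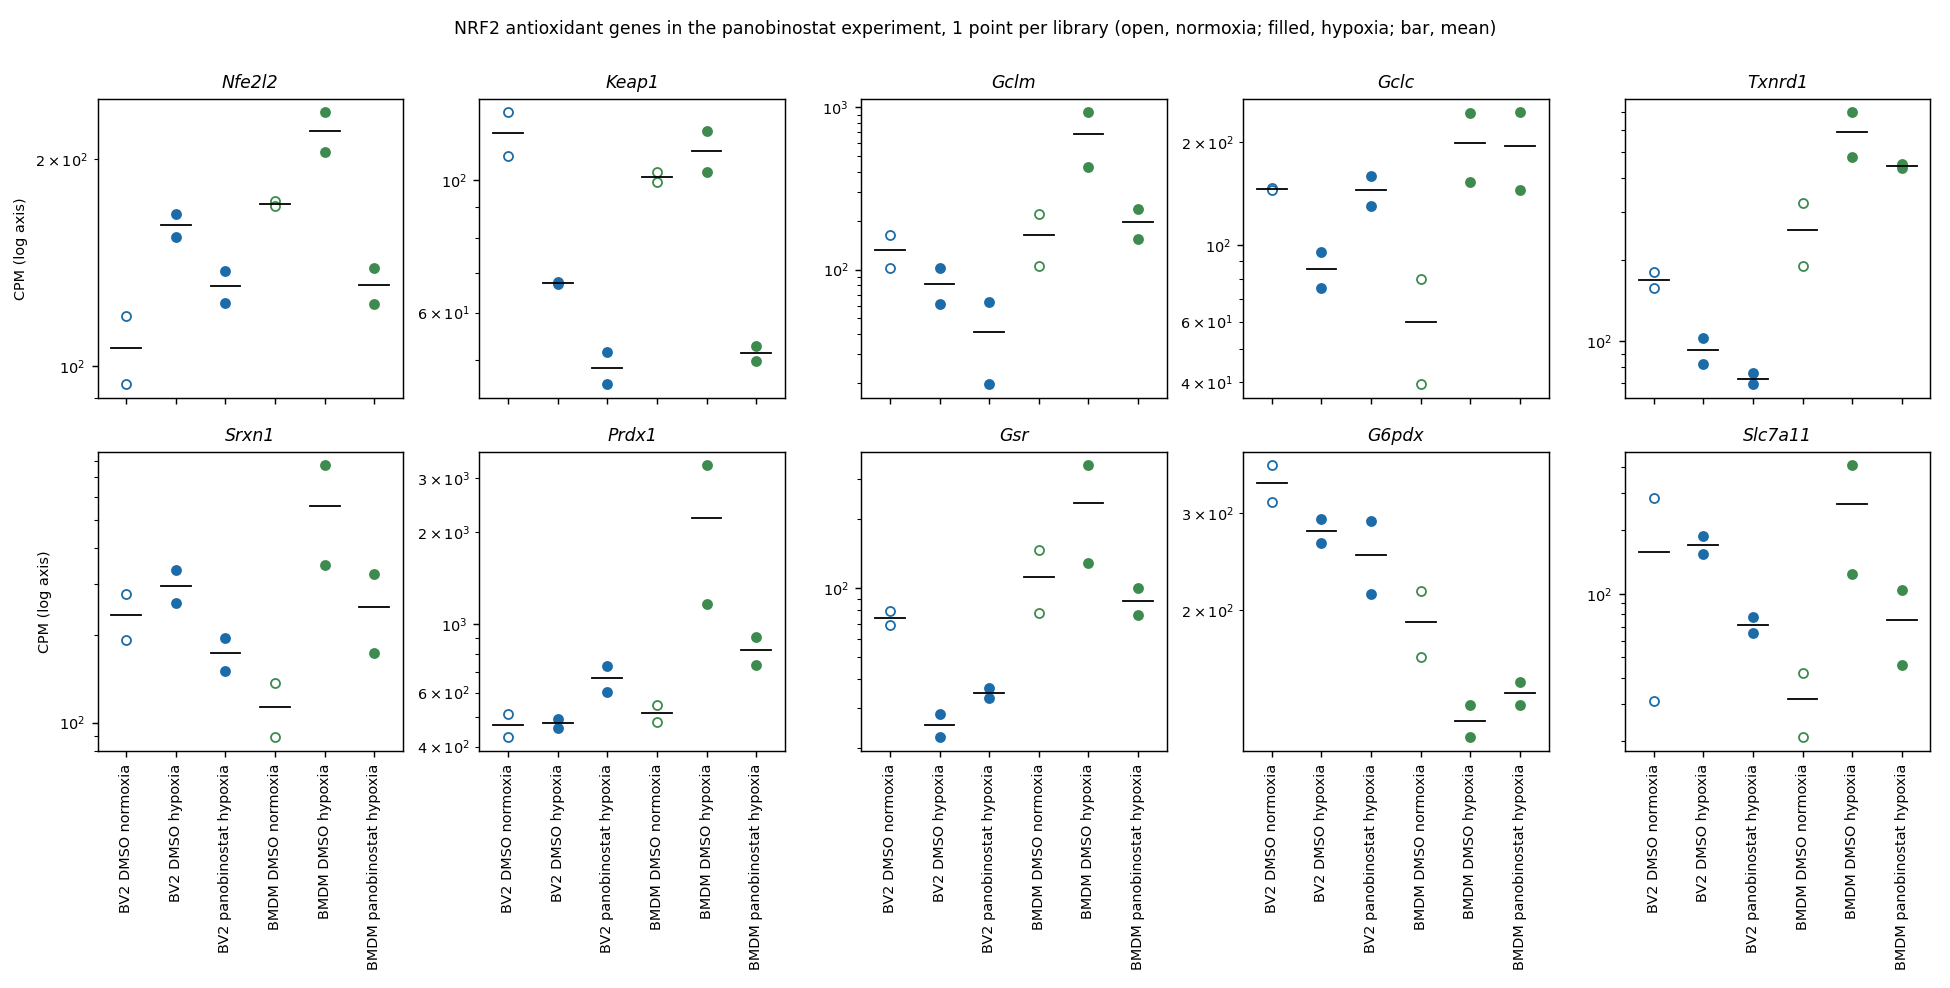
Each panel shows 1 gene, with CPM on a log axis and 1 point per library of the panobinostat experiment; open points are normoxia, filled points hypoxia, and bars are group means. In BMDM with DMSO the hypoxic Prdx1 points are at 3296 and 1162 CPM, above the normoxic 482 and 544, and the normoxic BV2 Slc7a11 points are at 285 and 30.9 CPM.

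Across the 38 libraries, with the mean of each cell type in each experiment subtracted, the 10 genes did not follow a single pattern. The 45 pairwise correlations of log2 CPM ran from -0.69 to 0.788 with a median of 0.206. All pairs among Gclm, Gclc, Txnrd1, Srxn1, Prdx1 and Gsr were positive, from 0.459 (Srxn1 with Gsr) to 0.788 (Gclm with Txnrd1). Every negative value was in a pair with Nfe2l2, G6pdx or Slc7a11. These genes were grouped after the values were seen. These libraries share their oxygen groups, so the values describe the set and carry no test. Among 11266 genes tested in every cell type, the gene most like Nfe2l2 was Rela (r = 0.933), and that most like Keap1 was Myd88 (0.912). For the glutathione genes these were Panx1 for Gclm (0.836), Pgrmc1 for Gclc (0.806) and Soat2 for Slc7a11 (0.873). They were Tmed2 for Srxn1 (0.876) and Ost4 for Prdx1 (0.887), and for the NADPH-linked pair Spryd7 for Gsr (0.87) and Hspa8 for G6pdx (0.881).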

How the data were processed

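The deposited values are raw counts of reads per Ensembl gene in 3 tables, 1 column per library, per the file headers. Per the submitters' processing notes the authors used Trimmomatic 0.36, STAR 2.6, SAMtools, HTSeq 0.9.1 and deepTools with mm10, and Picard 2.17.1 for the 16 BV2 and GL261 libraries of the co-culture experiment. Libraries were made with a stranded mRNA kit, per the labels' protocols; use of strand in counting is not given in the sources used here.

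The 10 genes, the other lists and the markers were chosen with earlier results of these data known. Counts were tested with edgeR 4.0.16 in R 4.3.3 (trimmed-mean factors, default filter with minimum count 10 and total 15), with 1 fit per cell type and table and 1 mean per group. Contrasts between cell types used 1 fit per table. P-values were adjusted over all genes tested. A standard error is the log2 fold change divided by the square root of F. Alternatives were DESeq2 1.42.0, its size factors, 2 other filters, a replicate block, only the groups compared, each library left out, and genes high in the partner cell (4-fold or more) left out. From the other lists, the genes with the largest rise and fall past the threshold in each monoculture and with panobinostat were named, plus Nqo1, Hmox1 and Txn1. Replicate numbers come from the labels, which do not say what they pair. All same-numbered libraries deviated together, with correlations over 0.1, in the normoxic and hypoxic BMDM co-cultures (3 pairs) and in both cell types of the panobinostat experiment. With 2 libraries a group, both pairs of a comparison give 1 and the same correlation. No replicate pair held identical counts. Tests were run on simulated data first. Gene positions are from the GENCODE annotation of GRCm38. Promoters of Gclc and Gsr were not used here. The gene most like Txnrd1 is not reported here. The floor of 3 counts covers counting error only, while the standard errors and SDs include the spread between libraries.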

Additional observations from a re-analysis of the deposited data

Results flagged for a closer look

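The hypoxia effect differed between BV2 and GL261 monocultures, by a test of the difference itself, for 6 of the 10 genes, where 37.4% of all genes differed. The Nfe2l2 and Prdx1 differences did not pass when certain single libraries, named above, were left out. The log2 differences, BV2 minus GL261, were -0.68 for Nfe2l2, -1.16 for Keap1, -1.10 for Txnrd1 and -0.86 for Gsr, and 0.87 for Prdx1 and 1.25 for G6pdx. In the fits by cell type the hypoxia effects on the log2 scale were 0.35 in BV2 and 1.13 in GL261 for Nfe2l2, and -0.87 and 0.39 for Keap1. They were -1.37 and -0.17 for Txnrd1, -0.72 and -1.49 for Prdx1, -1.71 and -0.74 for Gsr, and -0.22 and -1.36 for G6pdx.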

How the results depend on the processing

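Numbers in this paragraph are how many of the 10 genes were called, with the value of the report first. With DESeq2 they went from 3 to 5 for BV2 against BMDM in DMSO normoxia, 0 to 1 for co-culture in hypoxic BMDM, 0 to 7 for the hypoxia effect in BV2 against BMDM, 0 to 6 for hypoxia in BMDM with DMSO, 3 to 5 in BMDM monoculture, and with panobinostat 0 to 3 in BMDM and 1 to 2 in BV2. With every gene of at least 1 count tested they went from 0 to 1 for the co-culture by hypoxia interaction in BMDM and in BV2, 0 to 1 and 0 to 2 for co-culture in hypoxic and normoxic BMDM, 1 to 2 for co-culture in BV2 at each oxygen level, 0 to 7 for the hypoxia effect in BV2 against BMDM, 0 to 7 for hypoxia in BMDM with DMSO, 3 to 5 in BMDM monoculture, and with panobinostat 1 to 4 in BV2, 0 to 6 in BMDM and 0 to 2 for their difference. With a mean CPM of at least 5 the hypoxia effect in BV2 against BMDM went from 0 to 1. With the replicate block it went from 0 to 1, hypoxia in BMDM with DMSO from 0 to 2, in BMDM monoculture from 3 to 6, and panobinostat from 0 to 3 in BMDM and 1 to 4 in BV2. Same-numbered libraries correlated at means of 0.446 in BMDM and 0.302 in BV2 of the panobinostat experiment. In the fits of the co-culture experiment the means were 0.0335 in BV2, 0.181 in GL261 and 0.148 in BMDM, and some pairs were below 0.1. Correlation between cell types was not checked. With only the groups compared in the fit, co-culture in normoxic BV2 went from 1 to 3, BMDM monoculture from 3 to 7 and panobinostat in BV2 from 1 to 3. Without partner-high genes, hypoxia in GL261 co-culture went from 7 to 3, since only 5 of the genes were then tested. For the other changes the cause was not tested. For BV2 against BMDM in DMSO normoxia the count over all genes was 7054 in the main fit and 7261 with DESeq2. Counts over all genes at part of the other settings are given below. Where none is given, a change in the 10 genes cannot be told apart from a change over all genes.

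Leaving out 1 library at a time gave 0 to 3 for BV2 against BMDM in DMSO normoxia, 0 to 1 for co-culture in hypoxic BMDM and in BV2 at each oxygen level, 0 to 6 for the hypoxia effect in BV2 against BMDM, 0 to 3 for hypoxia in BMDM with DMSO, 0 in BMDM monoculture, 2 to 6 in BV2 with DMSO, and 0 to 1 for panobinostat in BV2 and for its difference from BMDM. A lone library was assumed to vary like the other groups. For the fits with 1 library left out, counts over all genes are not given here or above. A fall or rise in these numbers therefore cannot be told apart from a change over all genes. The ranges also hide which gene was called. For co-culture in hypoxic BV2 without co-culture hypoxia replicate 1, that gene was Gclc, which was lower (-0.63), while Srxn1 was at 0.17. Slc7a11 in BV2 with DMSO ranged from -0.71 to 2.50, the 1 reversal found.

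Counts over all genes also moved. In BMDM of the panobinostat experiment they were, for hypoxia, 72 to 2260 with DESeq2, 3259 with at least 1 count, 2127 with the block and 0 with only the groups compared, and for panobinostat 0 to 2221, 2867 and 2044 with DESeq2, at least 1 count and the block, 66 with DESeq2's size factors and 53 with mean CPM of at least 5. The hypoxia effect in BV2 against BMDM went from 106 to 1176, 1372, 247 and 363 (DESeq2, at least 1 count, mean CPM of at least 5, block), and the panobinostat difference from 4 to 227, 613 and 22 (DESeq2, at least 1 count, block). Panobinostat in BV2 went from 1941 to 4025 with the block, and hypoxia in BMDM monoculture from 3542 to 6289 with only the groups compared. For co-culture without partner-high genes the counts went from 2152 to 1190 and 2266 to 1403 in normoxic and hypoxic BV2, 243 to 20 and 1053 to 82 in BMDM, and 78 to 14 in normoxic GL261. With at least 1 count they went from 243 to 1062 and 1053 to 2141 in BMDM, 78 to 361 and 211 to 737 in GL261, and for the interaction 316 to 981 in BV2, 0 to 128 in BMDM and 0 to 73 in GL261. With DESeq2 the same counts became 634, 1733, 162, 459, 673, 9 and 47. With mean CPM of at least 5 the co-culture counts were 70 and 313 in normoxic and hypoxic BMDM, 1245 and 1461 in BV2 and 11 in normoxic GL261. With only the groups compared they were 231 in hypoxic BMDM and 124 and 20 in normoxic and hypoxic GL261, and with the block 432 in normoxic BMDM and 226 and 654 in GL261. With 2 libraries in most groups, calls near the threshold depend on single libraries.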
